A study of Danio rerio with 10 samples.

Results

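The C/EBP family (CCAAT/enhancer-binding proteins) was examined in sorted cells of the zebrafish (Danio rerio) pituitary. Members were taken by name: of 14781 genes listed, 6 matched the family pattern, namely cebpa, cebpb, cebpd, cebpg, cebp1 and cebpz. The name pattern uses no measured value, but it was chosen with earlier results of these data known. All 6 genes had enough counts to be tested. RNA came from adult males of the TL strain, aged 12 months, that had been injected with 10 µL of PBS containing 4.6 mM of β-Ala-Lys-Nε-AMCA, a dipeptide carrying a blue fluorescent dye. Pituitaries were collected 3 hours later as 5 pools of 7 and dissociated, and living cells inside the dye gate (AMCA-positive, labelled pituicytes, the astroglia of the neural lobe) were collected apart from unlabelled cells (AMCA-negative, labelled non-pituicytes). Both groups came from injected fish and neither carried a transgene according to the labels; each had 5 libraries, 2 on plate 1 and 3 on plate 2, from 2 sorting experiments. The labels do not tie libraries to pools, so the libraries were not paired.

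Proteins of this family bind DNA as dimers through a basic region and a leucine zipper (together called bZIP), and pair with each other or with related bZIP proteins such as Ddit3 and Atf4. In vertebrates C/EBP-alpha directs the formation of myeloid blood cells and the maturation of liver and fat cells. C/EBP-beta and C/EBP-delta are induced by inflammatory and stress signals, in macrophages, liver and also astrocytes. C/EBP-gamma is a short member that lacks the activating part and acts as a dimer partner, cebp1 is a myeloid member described in zebrafish, and Cebpz shares the name but not the bZIP fold, being a nucleolar protein needed for making ribosomes.

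The libraries held 4250948 to 6068781 counts, and 11308 to 11817 genes had a count in AMCA-positive against 7079 to 9056 in AMCA-negative libraries. Levels are given as CPM, a library's counts scaled to a common total after TMM, which corrects for differences in RNA make-up between libraries. The labelled cell type was checked against 18 astroglial markers: in AMCA-positive libraries 11 of the 16 that could be tested rose and 0 fell, and their summed level was 2969 to 6329 CPM against 326 to 1059. The AMCA-positive libraries held leukocyte markers too. Of microglia and macrophage markers 10 of 14 were higher and 0 lower, with summed levels of 10408 to 31569 against 591 to 2330 CPM, and of neutrophil markers 16 of 17 were higher and 0 lower, at 2190 to 8417 against 332 to 847 CPM. Higher too were 5 of 11 endothelial, 9 of 11 mural and fibroblast, 5 of 7 epithelial and 2 of 10 hormone cell markers, with 0 lower in each list. Some markers had almost no AMCA-negative counts and could not have been called lower. Among them were slc1a3a, npsn and krt5, named after their values were seen, with no AMCA-negative count. The marker calls thus depend in part on which genes could be tested. Over all genes tested, 16.2% were higher and 6.56% lower by the test given below. The hormone list, with 20% higher, was near that share. AMCA-negative libraries were rich in red cell RNA, with 12 of 12 markers lower in AMCA-positive libraries. In bulk RNA of this kind, fewer cells of a type and less RNA per cell cannot be told apart.

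Of the C/EBP genes, 4 of 6 were higher in AMCA-positive libraries and none was lower (quasi-likelihood test of edgeR in a model with plate, Benjamini-Hochberg adjustment over 10468 genes, threshold 0.05). Among all genes tested 16.2% were higher and 6.56% lower by the same rule. Those higher were cebpa, cebpb, cebpd and cebp1. In mean CPM the difference was 12.9-fold for cebpd and 2.73-fold for cebpb, it was far larger for cebpa, and cebp1 had few counts. Both cebpa and cebp1 had enough counts to be tested through the AMCA-positive libraries alone, so neither could have been called lower. The call of cebp1, counted among the 4, was lost in 7 of 8 fits that left out 1 library. The genes cebpg and cebpz did not pass the test. For 3 of the 6 genes (cebpa, cebpb and cebpd) the lowest AMCA-positive library exceeded the highest AMCA-negative library, which was so for 18.7% of all genes tested. The median log2 fold change of the 6, cebp1 included, was 2.62, against 0.69 over all genes tested.

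The myeloid, liver and fat regulator cebpa was almost confined to AMCA-positive libraries. AMCA-positive replicates 1 to 5 held 181, 896, 330, 469 and 255 CPM. AMCA-negative libraries held 2 counts in all, 1 in replicate 2 and 1 in replicate 4, and the mean level was 426 ± 283 against 0.0816 ± 0.112 CPM (SD, n = 5 each). The groups did not overlap, and positive replicate 2 stood highest of the 5. From the summed counts, 13535 against 2, the ratio was 4715-fold (95% exact counting interval 1305 to 38934), and edgeR gave an adjusted p of 4.60e-06. The interval covers counting error only, since reads amplified without molecular identifiers are not independent molecules. By fitted log2 fold change cebpa ranked 5 among 10468 genes. It ranked 1 among the 822 tested genes that the deposited annotation types as transcription regulators, of which 132 (16.1%) were higher and 61 lower. With 2 AMCA-negative counts the fitted value of cebpa is loosely fixed, and so are these ranks. Other members ranked lower among all genes: cebp1 914, cebpd 2030, cebpb 3808, cebpz 4473 and cebpg 5182. Among the regulators cebpd ranked 134 and cebpb 263.

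The inflammation-induced regulator cebpb was abundant in both groups. It stood at 3069, 2646, 4698, 3349 and 2978 CPM in AMCA-positive replicates 1 to 5 and at 680, 640, 516, 1830 and 2477 CPM in AMCA-negative replicates 1 to 5. The groups did not overlap, but the lowest AMCA-positive library was close to the highest AMCA-negative one, and negative replicates 4 and 5 stood well above the other AMCA-negative libraries. Means were 3348 ± 795 and 1229 ± 877 CPM (SD, n = 5 each), and the log2 fold change was 1.56 ± 0.37 (SE; adjusted p = 0.0121 in edgeR). The median of all genes tested was 0.69, and 63.6% of them had a lower log2 fold change than cebpb. With either plate alone cebpb did not pass (log2 fold change 1.91, edgeR adjusted p = 0.0895 on plate 1, and 1.196, edgeR adjusted p = 0.212 on plate 2).

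For cebpd, the other inducible member, the difference was larger. AMCA-positive replicates 1 to 5 held 1064, 1042, 487, 1134 and 857 CPM, and AMCA-negative replicates 1 to 5 held 11.3, 124, 55.1, 92.2 and 72.0 CPM. Every AMCA-positive library was above every AMCA-negative one. Positive replicate 3, which had the most cebpb, had the least cebpd of the AMCA-positive libraries, and negative replicate 1 had the least of all 10. The means of 917 ± 261 and 71.0 ± 42.1 CPM (SD, n = 5 each) gave a log2 fold change of 3.68 ± 0.55 (SE; adjusted p = 0.00109 in edgeR).

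The myeloid gene cebp1 was found at low counts and in AMCA-positive libraries only. Replicates 1 to 5 held 12, 3, 19, 24 and 0 counts, or up to 3.66 CPM, and AMCA-negative libraries held none. Set against a floor of 3 counts over the AMCA-negative group, the summed 58 counts were at least 13.5-fold higher, and edgeR gave an adjusted p of 0.0452. One AMCA-positive library had no count, so the groups touched at 0. The call did not hold when any of 7 single libraries was left out (positive replicates 1 and 2 and each of the AMCA-negative replicates; edgeR adjusted p up to 0.0903), it did hold without positive replicate 5 (edgeR adjusted p = 0.0203), and without positive replicate 3 or 4 too few counts were left for a test.

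The dimer partner cebpg was present in every library of both groups and did not pass the test. AMCA-positive replicates 1 to 5 held 163, 157, 100, 125 and 105 CPM and AMCA-negative replicates 1 to 5 held 98.2, 66.3, 157, 44.2 and 23.2 CPM. The groups overlapped through negative replicate 3, and the other 4 AMCA-negative libraries lay below every AMCA-positive one. Means were 130 ± 29.1 and 77.9 ± 52.4 CPM (SD, n = 5 each). The log2 fold change of cebpg was 0.72 ± 0.48 (SE; adjusted p = 0.351 in edgeR), where the median of all genes tested was 0.69. Without negative replicates 1 and 3 together cebpg passed (log2 fold change 1.46, edgeR adjusted p = 0.0180), and without negative replicate 3 alone the edgeR adjusted p was 0.0532. Replicate 3 was the highest and replicate 1 the next highest AMCA-negative library for cebpg. Leaving them out therefore had to widen the difference, and this pass adds no support for one.

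The ribosome biogenesis gene cebpz lay between 27.1 and 43.2 CPM in AMCA-positive libraries, with a mean of 33.9 ± 7.19 (SD, n = 5). In AMCA-negative replicates 1 to 5 it was at 88.1, 23.1, 0, 16.0 and 4.99 CPM. The groups overlapped, and the AMCA-negative libraries covered a range on both sides of the AMCA-positive ones. Its log2 fold change was 1.13 ± 1.30 (SE; adjusted p = 0.617 in edgeR). Within plate 1 the log2 fold change of cebpz had the other sign, -1.26 (edgeR adjusted p = 0.591).

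**Figure D1:**
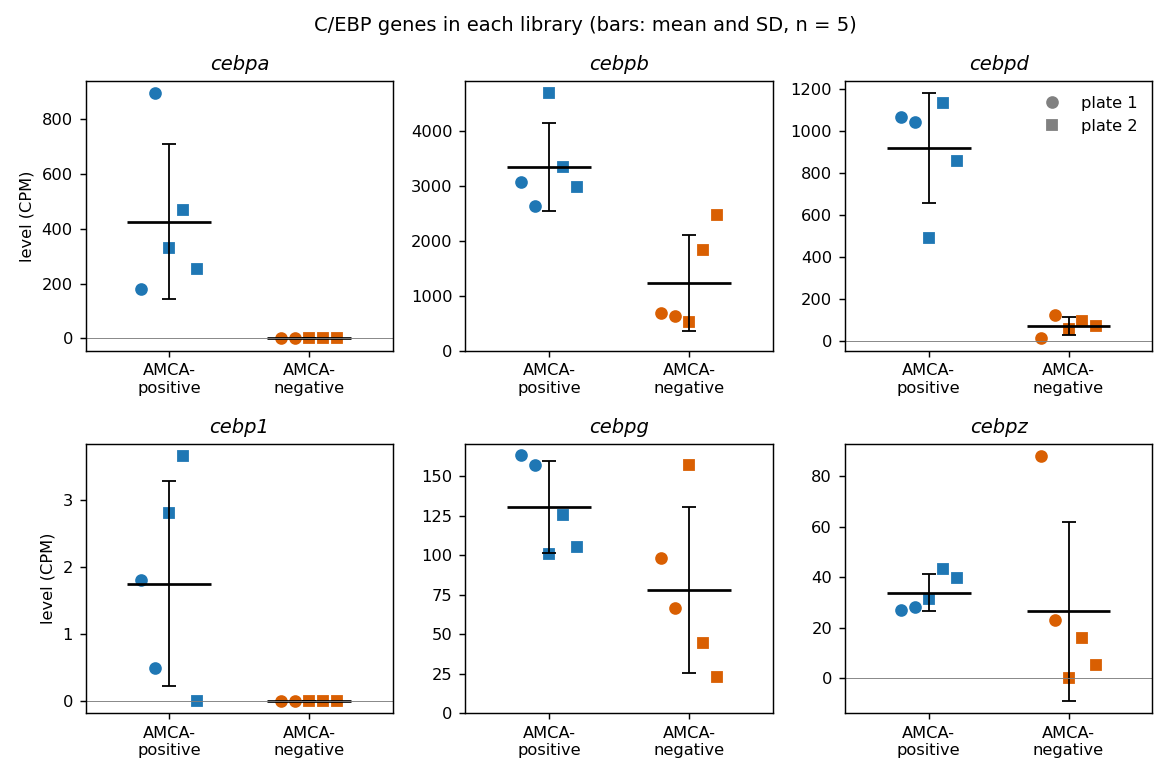
Level of each C/EBP gene (CPM, linear axis, a separate scale per gene) in the 5 AMCA-positive and 5 AMCA-negative libraries; points are libraries, circles plate 1 and squares plate 2, and bars are the mean and SD. The groups are apart for cebpa, cebpb and cebpd and overlap or touch for cebp1, cebpg and cebpz.

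**Figure D2:**
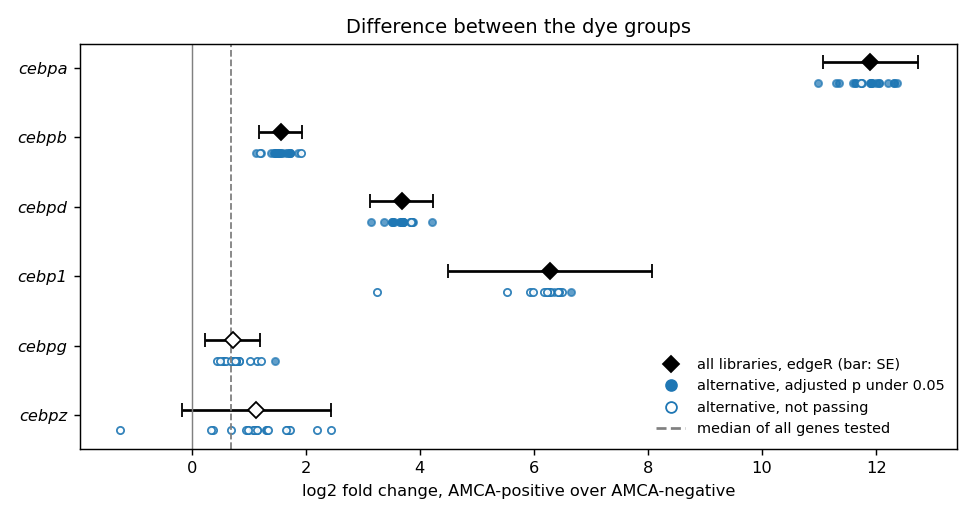
Log2 fold change of each C/EBP gene, AMCA-positive over AMCA-negative, from all 10 libraries (diamonds with SE, filled where the edgeR adjusted p was under 0.05) and under each alternative setting (circles, filled where it passed). The dashed line is the median of all genes tested with all 10 libraries, 0.69.

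The authors' deposited table held the same directions for all 6 genes. In it cebpa, cebpd, cebpb and cebp1 had adjusted p-values of 1.39e-28, 5.47e-10, 0.00906 and 0.0140 in the authors' deposited table, and cebpg (0.253) and cebpz (0.783) did not pass.

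The difference between the dye groups was also compared between plates. A plate by group term was past the test for 0 of 5 C/EBP genes that had AMCA-negative counts, as for 0% of all 11150 genes tested (edgeR adjusted p under 0.05); 0 of the 5 and 1076 of all genes had an unadjusted p under 0.05. The AMCA-negative means of cebpb were 660 CPM on plate 1 and 1608 on plate 2, and those of cebpz 55.6 and 6.99 CPM. With 2 libraries per group on plate 1 such a term can show only large differences.

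The family as a whole took a larger part of the library in AMCA-positive cells. Summed over the 6 genes, C/EBP counts made up 0.580 ± 0.0553% of the counts of AMCA-positive and 0.122 ± 0.0802% of those of AMCA-negative libraries (SD, n = 5 each). The ranges, 0.530 to 0.646% and 0.0490 to 0.234%, did not overlap. These are parts of unscaled library counts. Red cell markers summed to 267929 to 648460 CPM in AMCA-negative against 419 to 1326 CPM in AMCA-positive libraries. Those CPM include the TMM factors and are not parts of a library. After TMM the summed C/EBP level was 4234 to 5650 CPM in AMCA-positive and 728 to 2577 CPM in AMCA-negative libraries, without overlap but with a smaller relative gap. The make-up of that sum differed as well. In AMCA-positive libraries cebpb took 68.5 ± 9.97%, cebpd 19.3 ± 6.08%, cebpa 8.76 ± 5.89% and cebpg 2.73 ± 0.738% of C/EBP counts (SD, n = 5). In AMCA-negative libraries cebpb took 82.3 ± 11.2%, cebpg 8.74 ± 8.31%, cebpd 6.17 ± 5.23% and cebpz 2.75 ± 4.22% (SD, n = 5). These are shares of counts, not of molecules: they are not corrected for transcript length, so they are to be read across libraries and not between genes.

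**Figure D3:**
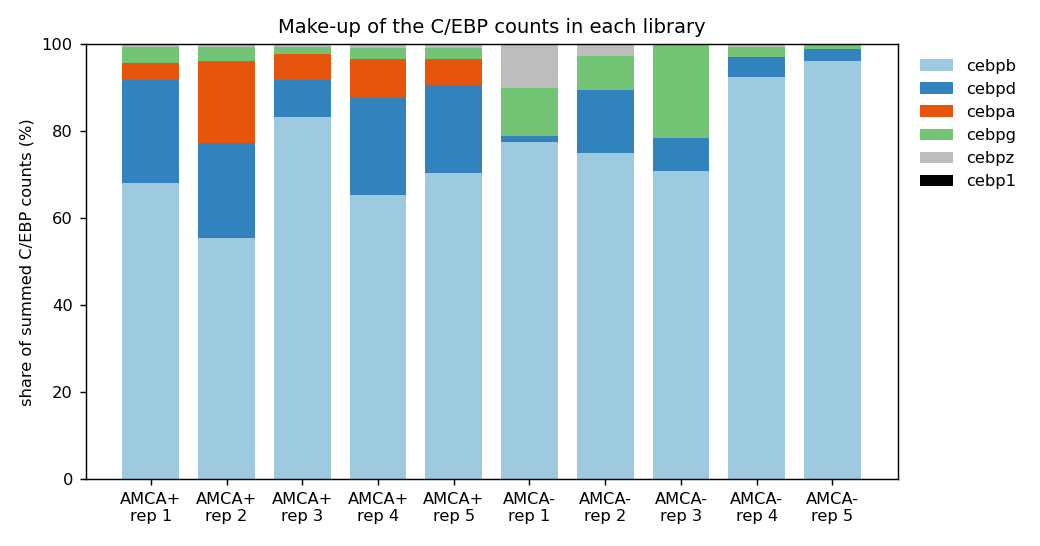
Share of the summed C/EBP counts (percent, stacked bars) taken by each of the 6 genes in each library. The band of cebpa, between 4.02% and 18.8%, is visible in all 5 AMCA-positive libraries and in none of the AMCA-negative ones.

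Whether members differed unequally between the groups was tested on the log2 ratio of 2 genes within a library, which does not depend on how libraries are scaled. Of 10 pairs among the 5 genes with counts in both groups, 6 passed (exact permutation test over 252 arrangements, two-sided, Benjamini-Hochberg adjusted over the 10 pairs; the smallest p possible is 0.00794). All 4 ratios of cebpa to another member were higher in AMCA-positive libraries, by 9.32 against cebpb, 7.04 against cebpd, 10.03 against cebpg and 8.83 against cebpz on the log2 scale, each with no overlap between the groups (exact permutation adjusted p = 0.0159). These 4 differences rest on 0 or 1 cebpa count in each AMCA-negative library, with 0.5 added to every count. Their size depends on that constant. With cebpa near absent there, these ratios could hardly have come out otherwise. The 4 tests share the same cebpa counts and add no support beyond the cebpa difference itself. Negative replicate 3 had no count of cebpa or cebpz, so its ratio for that pair is set by the constant alone.

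The inducible members cebpb and cebpd gave a borderline result. The log2 ratio of cebpb to cebpd averaged 1.90 ± 0.78 where the dye was taken up and 4.18 ± 1.42 in the other group (SD, n = 5 each), a difference of -2.28 (exact permutation adjusted p = 0.0397). That test exchanges libraries across plates; with exchange within plates only, which leaves 120 arrangements, the exact permutation adjusted p was 0.0556 for this pair, and the other 5 pairs that passed still did so (exact permutation adjusted p = 0.0333). The groups overlapped through positive replicate 3, and the adjusted p was above 0.05 in 8 of 10 cases when 1 library was left out, all but those without positive replicate 3 or negative replicate 3. With 9 libraries the test has fewer arrangements to draw on. The ratio of cebpd to cebpg also differed, at 2.78 ± 0.35 against -0.21 ± 2.02 (SD, n = 5 each; difference 2.99, exact permutation adjusted p = 0.0159, no overlap). For cebpb against cebpg the difference was 0.71 (exact permutation adjusted p = 0.585), and no pair with cebpz other than the one with cebpa passed.

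**Figure D4:**
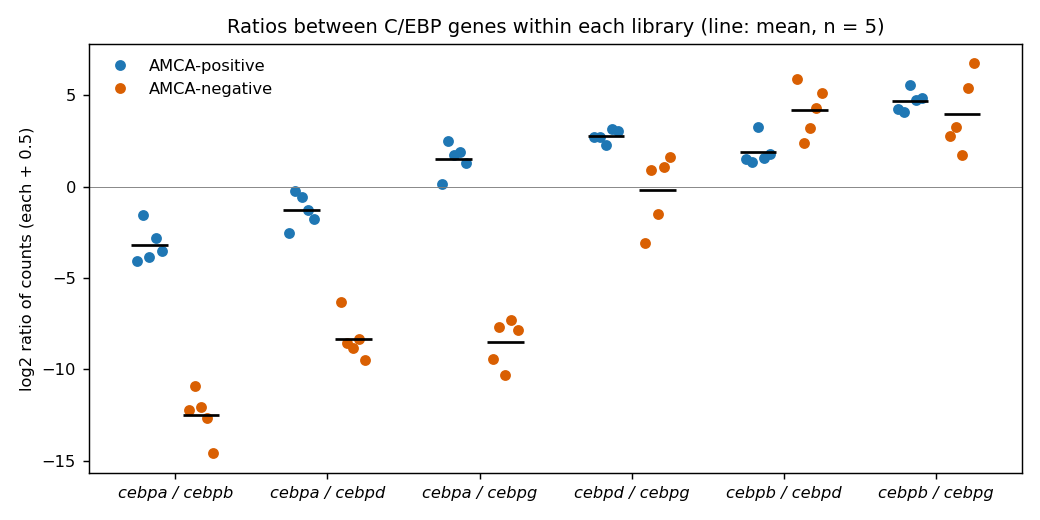
Log2 ratio of counts between pairs of C/EBP genes within each library (0.5 added to each count), by dye group; points are libraries and lines are means of 5. Ratios with cebpa on top are 7.04 log2 units or more apart on average between the groups, those of cebpb to cebpg overlap.

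The counts of cebpb in AMCA-negative libraries came without those of cebpa. AMCA-positive libraries held 2.95 to 16.9 counts of cebpb for each count of cebpa. The AMCA-negative libraries held 2414, 2913, 2105, 9726 and 12412 counts of cebpb in replicates 1 to 5, beside 0, 1, 0, 1 and 0 of cebpa.

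Macrophages and neutrophils are known to express C/EBP genes, and their markers were higher in the same libraries. Among AMCA-positive libraries, replicates 1 to 5 held 3273, 8417, 4269, 6642 and 2190 CPM of the summed neutrophil markers and 16550.5, 10408, 31569, 14203 and 15985 CPM of the summed macrophage markers. Positive replicate 2 had the most cebpa and the highest neutrophil sum, and positive replicate 3 had the most cebpb, the least cebpd and the highest macrophage sum. Single genes within a list differed. Of the neutrophil list, cyba (1642 CPM) and ncf1 (1424 CPM) were highest in positive replicate 2, but the granule genes mpx and lyz in positive replicate 4. The neutrophil sum thus does not follow the granule genes alone. It stood at 2190 CPM in positive replicate 5, which had no mpx count. Of the macrophage list, mfap4 and hexb were highest in positive replicate 2 and c1qb in positive replicate 3. The genes cyba, ncf1 and hexb were named after their values were seen. With 5 libraries no correlation is given, and the part of leukocytes in the differences between the dye groups was not tested.

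In positive replicate 5 the granule peroxidase gene mpx had no count and the lysozyme gene lyz stood at 1.89 CPM, while replicates 1 to 4 held 21.8, 39.2, 27.5 and 83.3 CPM of mpx and 313, 447, 159 and 1162 CPM of lyz. The granule genes npsn and scpp8, named after their values were seen, also had no count there. The rest of the neutrophil list was present in that library, from 4.73 CPM (lect2l) to 662 CPM (srgn). It included nccrp1 at 447, cyba at 321, cybb at 255 and ncf1 at 214 CPM. In the same library cebp1 had no count, and cebpa was at 255, cebpb at 2978 and cebpd at 857 CPM. The macrophage receptor gene csf1ra was at 49.4 CPM in it and at 38.3 to 67.4 CPM over the 5 AMCA-positive libraries, against 2 counts in all AMCA-negative ones, a ratio of 599-fold (95% exact counting interval 166 to 4954).

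**Figure D5:**
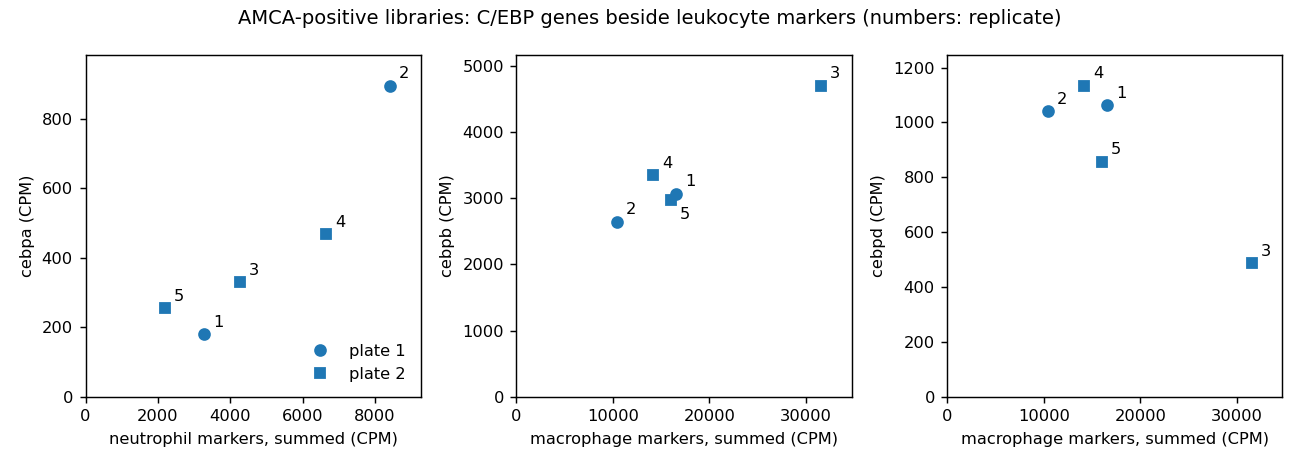
Levels of cebpa against summed neutrophil markers, and of cebpb and cebpd against summed macrophage markers, in the 5 AMCA-positive libraries (CPM, axes from 0, numbers are replicates). Replicate 2 is highest for cebpa and the summed neutrophil markers, though the granule genes mpx and lyz were highest in replicate 4. Replicate 3 is highest for cebpb and the summed macrophage markers and lowest for cebpd.

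Among 13 tested bZIP genes whose proteins pair with C/EBP proteins or bind related sites, 4 were higher and 1 was lower, against 16.2% and 6.56% of all genes, and their median log2 fold change was 1.43. The stress-induced partner atf3 was at 735 ± 130 against 66.5 ± 101 CPM (SD, n = 5; log2 fold change 3.89 ± 0.87 SE, adjusted p = 0.00872 in edgeR). The stress regulator atf4a was at 199 ± 73.5 against 83.0 ± 51.7 CPM (SD, n = 5; log2 fold change 1.43 ± 0.41 SE, adjusted p = 0.0275 in edgeR), with overlapping groups. Its usual companion ddit3, the inhibitory partner also called CHOP, was at 128 ± 35.8 against 62.9 ± 40.4 CPM (SD, n = 5) and did not pass (edgeR adjusted p = 0.443). The repressor family genes nfil3-6 (log2 fold change 3.52 ± 0.92 SE, adjusted p = 0.0184 in edgeR) and nfil3-2 (86 against 1 count, ratio 59.9, 95% exact counting interval 10.5 to 2394) were higher. The circadian bZIP gene tefa was the one that fell, by 1.29 ± 0.30 on the log2 scale (SE; adjusted p = 0.0106 in edgeR), and its paralog tefb was at 3.65 against 27.4 CPM without passing (edgeR adjusted p = 0.0669).

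Of 8 tested genes whose products act on C/EBP proteins in mammals, 1 (12.5%) was higher, against 16.2% of all genes, and 1 was lower, with a median log2 fold change of 0.48 against 0.69. The higher one was trib3, a pseudokinase of the Tribbles family, at 690 ± 142 against 104 ± 86.4 CPM (SD, n = 5; log2 fold change 2.85 ± 0.93 SE, adjusted p = 0.0481 in edgeR). The lower one was celf1, which encodes an RNA-binding protein, at 27.8 ± 8.56 against 93.7 ± 46.8 CPM (SD, n = 5; edgeR adjusted p = 0.0327). The kinase genes mapk3 and rps6ka3a and the ubiquitin ligase gene rfwd2 did not pass (edgeR adjusted p from 0.580 to 0.812).

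Of 13 tested transcription factors of blood cell fate, 3 were higher, 5 were lower and 5 did not pass, against 16.2% and 6.56% of all genes higher and lower, with a median log2 fold change of 0.32. The myeloid factor genes spi1a and spi1b, both encoding Pu.1 proteins that act with C/EBP-alpha, were higher. Levels of spi1a were 182, 332, 655, 296 and 220 CPM in AMCA-positive replicates 1 to 5 and 0.490 to 9.29 CPM in AMCA-negative libraries. The log2 fold changes were 5.90 ± 0.75 for spi1a (SE; adjusted p = 3.77e-04 in edgeR) and 3.85 ± 0.78 for spi1b (SE; adjusted p = 0.00562 in edgeR). The erythroid factor genes gata1a, gfi1b, tal1 and lmo2 had log2 fold changes of -7.72, -7.72, -7.11 and -5.47 (edgeR adjusted p from 5.27e-06 to 0.00672), in libraries where red cell markers summed to 267929 CPM or more against 1326 or less. The part of red cell content in these decreases was not tested. The other calls, named after their values were seen, were the immediate early gene egr1, which was higher (log2 fold change 2.45, edgeR adjusted p = 0.0137), and the blood cell factor gene ikzf1, which was lower (-2.08, edgeR adjusted p = 0.0431). The monocyte factor gene irf8 was at 90.8 against 15.2 CPM and klf4 at 7.76 against 0.391 CPM, and neither passed (edgeR adjusted p = 0.156 and 0.0812).

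Among 23 tested genes of the cytokine, stress and steroid signals that induce cebpb and cebpd in mammals, 7 were higher and 2 lower, against 16.2% and 6.56% of all genes, with a median log2 fold change of 0.76 against 0.69. The cytokine gene csf3b, encoding a granulocyte colony-stimulating factor, was at 68.4, 320, 34.7, 36.6 and 63.9 CPM in AMCA-positive replicates 1 to 5 with 1 AMCA-negative count. Its ratio was 2274-fold (95% exact counting interval 408 to 89841). The interleukin 6 gene il6 was at 2.12, 25.2, 2.81, 2.44 and 3.79 CPM and had no count in the AMCA-negative group, so it was at least 52.2-fold higher against the floor of 3 counts. Positive replicate 2, which had the most cebpa, held the most of both cytokine genes. The feedback inhibitor gene socs3b rose by 5.19 ± 1.07 on the log2 scale (SE; adjusted p = 0.00638 in edgeR). The receptor genes csf3r (31.4 ± 17.5 against 0.239 ± 0.536 CPM, SD, n = 5; edgeR adjusted p = 0.00754) and lifra (265 against 3 counts, ratio 61.5, 95% exact counting interval 20.8 to 300.3) were higher. The kinase gene jak2a was lower, with a log2 fold change of -5.34 ± 0.38 (SE; adjusted p = 5.24e-06 in edgeR).

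Of 19 tested genes that C/EBP proteins bind or drive in mammalian liver, fat, myeloid cells or glia, 11 were higher and 0 lower, against 16.2% and 6.56% of all genes. Their median log2 fold change was 5.72, or 5.59 with genes lacking AMCA-negative counts set at their bound. The list had 29 genes found, and those not tested included tgm2a (0 against 45 counts), gys2 (0 against 31) and lepb (203 against 0). Tested genes such as ptgs2a, lpl and mmp13a had almost no AMCA-negative counts and could not have been called lower. The calls and the median thus depend in part on which genes could be tested. Positive replicates 1 to 5 held 1403, 6106, 1915, 2594 and 1111 CPM of the summed list, and AMCA-negative libraries 108 to 256 CPM. Positive replicate 2 again stood highest. A large part of its sum was the single gene il1b, at 3138 CPM there against a median of 308 CPM over AMCA-positive libraries. The gene il1b, named after its values were seen, is also on the list of inducing signals. The prostaglandin synthase gene ptgs2a was at 143 ± 97.0 CPM with 2 AMCA-negative counts, a ratio of 1594-fold (95% exact counting interval 441 to 13163). The iron hormone gene hamp was at 577, 1761, 337, 297 and 362 CPM in AMCA-positive replicates 1 to 5 against 1.08 ± 2.08 CPM in the other group (SD, n = 5), and its log2 fold change was 9.06 ± 1.37 (SE; adjusted p = 0.00115 in edgeR). The lipase gene lpl had a ratio of 359-fold (95% exact counting interval 64.2 to 14226) on 1 AMCA-negative count, and the collagenase gene mmp13a was at 10.4 to 658 CPM against 1 count. Several of these genes, csf1ra, csf3r, mmp9 and mmp13a among them, are also leukocyte markers, and the list is not specific to C/EBP proteins.

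Of 54 listed genes named by rule that passed the test, 49 passed in every fit that left out 1 library and tested them. The others were trib3, lyz, celf1, atf4a and nfil3-6, which did not pass in 8, 7, 6, 4 and 2 of 10 such fits. Of the 49, voom with quality weights did not call illr4, mfap4, mmp13a, mpx, nfil3-2 and pomca, the DESeq2 Wald test did not call krt5, and nfil3-2 was also lost without negative replicates 1 and 3 together. For trib3 only leaving out negative replicate 2 or 5 kept the call (edgeR adjusted p up to 0.126). The call of lyz was lost without positive replicates 1, 2 and 4 or negative replicates 1, 2, 4 and 5, that of celf1 without positive replicates 1, 2, 3 and 4 or negative replicates 1 and 5, that of atf4a without positive replicates 1, 2 and 3 or negative replicate 3, and that of nfil3-6 without negative replicate 3 or 4. Since cebpb and cebpd are induced within hours by stress, immediate early genes are given beside them. Of 18 tested, 12 were higher and 1 lower, against 16.2% and 6.56% of all genes. Their summed levels were 32001 to 43771 CPM in AMCA-positive and 12417 to 20007.5 CPM in AMCA-negative libraries. The part of cell dissociation in these levels was not tested.

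For each member the genes with the most similar profile were sought by the root mean square difference of log2(CPM + 0.5) over the 10 libraries, after centring each gene at its own mean. Nearest to cebpd was junba, an immediate early gene of the AP-1 family, at 0.50 log2 units, with levels of 5468 ± 813 against 309 ± 162 CPM (SD, n = 5). The next were adgrv1 (0.66) and cd81a (0.68). Nearest to cebpa were the chemokine gene cxcl18b (0.62) and the uncharacterised genes si:dkey-226m8.7 (0.63) and si:ch211-264f5.2 (0.64). Nearest to cebpb were cdc42l (0.28), pi4kaa (0.41) and rab8b (0.42), and nearest to cebpg were gstp1 (0.34), cst14b.1 (0.36) and slc31a1 (0.37). For cebpz they were bpnt1 (0.47), dnajc9 (0.47) and lrrc47 (0.50), and for the sparse cebp1 otol1a (0.38), ugt2a2 (0.38) and lcmt2 (0.39). Between members the distances ran from 0.95 for cebp1 and cebpb to 4.26 for cebpa and cebpg. The added 0.5 narrows the profile of cebp1, which reached at most 3.66 CPM. Its fitted log2 fold change was 6.28 against 1.56 for cebpb, so the small distance does not show that the 2 genes are alike.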

How the data were processed

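The authors deposited raw counts, which are whole numbers by gene and library per the file headers, next to a normalized signal (the raw count divided by 1 size factor per library). The submitters' processing notes list danRer10 as the build and DESeq2, HTSeq, TopHat2 2.0.13 and cutadapt as tools, without roles. Annotation and strand setting are not stated there. The deposited log2 fold changes, p-values and score (test statistic) are the authors' own, and only their direction and adjusted p-values were used. Groups follow each sample's dye label, plates come from the titles, and replicate numbers follow sample order. The 10 libraries came from 5 pools, so an AMCA-positive and an AMCA-negative library can share a pool; which ones do is not stated, and the tests treat libraries as independent.

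The test on counts was run in R 4.3.3 with edgeR 4.0.16 (TMM, filterByExpr, robust quasi-likelihood F test, plate plus group, two-sided), Benjamini-Hochberg adjusted over all genes tested with 0.05 as threshold, after the same code had been tested on simulated data. The simulated data had as many genes raised as lowered, so they did not try TMM under uneven changes. SE is the log2 fold change divided by the root of F. A group without counts was set to a floor of 3 counts. Ratios on 1 to 3 counts carry an exact 95% interval. Permutation tests used scipy 1.17.1. Alternatives were DESeq2 1.42.0 (size factors, Wald test), limma 3.58.1 voom with quality weights, other filters, TMM without red cell and hormone genes, each plate alone, a model without plate, a block for neighbouring wells, and left-out libraries. Leaving out single libraries from the ratio tests, and exchanging dye labels within plates only, were added after seeing the data.

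Members, the 14 gene lists and the rule for named genes were chosen with earlier results of these data known. The rule takes all members, up to 6 genes of each pathway list and up to 3 of each marker list with the smallest p, the 3 nearest profiles of each member, and ddit3, atf4a, spi1b, csf3r, csf1ra, mpx and lyz; 1 gene that it takes is not reported here. Of 253 list entries 217 were found by name, 7 by synonym in the RefSeq table of GRCz12tu, and 29 were not found. The names in the count table are the authors' own. No transcript lengths of the authors' build were used, so levels were not compared between genes and the planned shares per length were not run.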

Additional observations from a re-analysis of the deposited data

Results flagged for a closer look

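In the AMCA-negative group cebpz stood far higher in replicate 1 than in the others, at 88.1 CPM with the next library at 23.1, a gap of 0.738 of the whole range of the 5 libraries. It was the only such case in the 13 sets of 5 libraries examined, which were each gene in each group where values varied and the summed C/EBP level in each group. The limit used, Dixon's 95% critical value, is set so that chance marks about 1 in 20 sets of normally distributed values.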

How the results depend on the processing

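For cebpa, cebpb and cebpd the direction and the call were the same in 20, 19 and 20 of 21 alternatives, with log2 fold changes of 10.98 to 12.37, 1.12 to 1.91 and 3.15 to 4.21. The exceptions were fits to a single plate: 11.74, 1.91 and 3.84 for cebpa, cebpb and cebpd on plate 1 and 1.196 for cebpb on plate 2. With 2 libraries per group, plate 1 alone called 29 genes higher and 34 lower. The call of cebp1 was lost with no filter (6.28), the DESeq2 Wald test (5.52), voom with quality weights (3.25), neighbouring wells as a replicate block (5.93), without negative replicates 1 and 3 together (6.42), and in 7 of 8 fits without 1 library (5.99 to 6.64); it was not tested with the 10 CPM filter, without a plate term or on a single plate. Without negative replicates 1 and 3 together, the AMCA-negative libraries with the most cebpg, cebpg passed (1.46), and on plate 1 cebpz had the other sign (-1.26). The cause of these changes was not tested. Genes called higher numbered 676 with a filter of 10 CPM in 5 libraries and 2711 by DESeq2, against 1693, and genes called lower 438 with the replicate block, against 687. That filter tests fewer genes, and the balance of calls turned, to 676 higher and 742 lower. The median of all genes, 0.69, was 0.85 with DESeq2 size factors (cebpg 0.84), 1.64 with voom (cebpg 1.14), 1.78 with the replicate block (cebpg 1.03) and 0.13 with the 10 CPM filter (cebpg 0.54). The medians with voom and with the replicate block lie within the 1.12 to 1.91 that cebpb covered over the alternatives. That range is over all settings, and its top is the fit to plate 1 alone, where the median of all genes was 0.29. It does not place cebpb against the median within voom or the replicate block. Without 1 library the difference between cebpb and cebpd in log2 ratio ranged from -2.73 to -1.85 (-2.28, no longer passing, under permutation within plates), between cebpb and cebpz from -1.53 to 0.75, between cebpd and cebpz from 0.32 to 3.27 (passing without negative replicate 3), and between cebpg and cebpz from -1.94 to 0.60. With a pseudocount of 2, 1 of the 3 nearest genes was kept for each of cebpa, cebpb and cebpd. Deviations from the group means of neighbouring wells correlated across genes at 0.00538 to 0.0353. Noise of single genes can hide a shared pool, so these values cannot tell whether neighbouring wells shared one. The wells were not treated as pairs because the labels do not tie libraries to pools. Of 588 counts of listed genes recomputed, 515 were within 1.5 times. At this depth a gene with 3 counts over the AMCA-negative group has 0.133 CPM, which limits what can be said of cebp1 and cebpa there.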

Other observations

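In the RefSeq annotation of GRCz12tu, cebpa and cebpg are direct neighbours among protein-coding genes. Within these libraries the neighbours differed: cebpa had 13535 against 2 counts in AMCA-positive and AMCA-negative libraries, and cebpg 4199 against 1644. On the other side of cebpa lies heatr3, at 37.0 ± 15.6 against 7.87 ± 15.4 CPM (SD, n = 5), which did not pass (edgeR adjusted p = 0.128). The genes beside cebpb, the phosphatase gene ptpn1 (edgeR adjusted p = 0.262) and tmem189 (edgeR adjusted p = 0.450), and mcm4 beside cebpd (edgeR adjusted p = 0.377) did not pass either, and ndufaf7 beside cebpz was higher (158 against 0 counts, at least 36.7-fold against the floor of 3 counts; edgeR adjusted p = 0.00956). The strand setting of the counting is not stated in the labels, so reads from overlapping genes could not be told apart.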
